A study of Mus musculus with 12 samples.

Results

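Klrd1, Klrk1, Klrc1 and Klrg1, which encode lectin-type receptors best known from natural killer (NK) cells, were followed across naïve and activated mouse CD8+ T cells. The genes were taken from the count table by their symbols, each of which names 1 row, and are 4 of its 13780 genes. All 4 passed the filter on low values (at least 1 CPM, a read count scaled to a common library total, in 3 libraries), but Klrg1 passed it only through the naïve libraries. RNA was sequenced in 12 libraries of splenic CD8+ T cells from wild-type C57BL/6J mice aged 8-12 weeks, purified by positive selection on magnetic beads, 4 libraries to a group. Naïve cells were frozen straight after purification, untreated and not activated. The media and lactate groups were both activated for 72 h with beads carrying antibodies to CD3 and CD28 in the presence of 10 U/ml IL-2. The media group received no addition, whereas the lactate group was cultured with 40 mM sodium lactate throughout. No sodium chloride group was among these libraries, so lactate and the added sodium cannot be told apart. The activated cells came from 5 mice, of which 3 supplied libraries of both conditions when mouse tags that recur in the labels at low and at high library numbers are read as different mice. This reading matches the number of mice in the record of the series, which also gives 4 separate mice for the naïve cells.

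The receptors work in pairs and through adaptors. CD94, encoded by Klrd1, reaches the cell surface as a heterodimer with a member of the NKG2 family. With NKG2A (Klrc1), which carries inhibitory tyrosine motifs, it forms an inhibitory receptor for the non-classical class I molecule Qa-1b (H2-T23), and with NKG2C (Klrc2) it forms an activating one. NKG2D (Klrk1) is a homodimer that binds stress-induced ligands and signals through DAP10 (Hcst) and, in mouse, also through DAP12 (Tyrobp). KLRG1 is an inhibitory receptor for cadherins and is widely used to mark terminally differentiated effector T cells. All are expressed by NK cells, and activated CD8+ T cells are known to acquire NKG2D and CD94/NKG2A.

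The genes lie on mouse chromosome 6 (GRCm38, GENCODE M21), and 3 of them are close neighbours. Klrd1 (ENSMUSG00000030165) spans chr6:129591782-129598775 on the plus strand. Klrk1 (ENSMUSG00000030149) spans chr6:129610323-129623864 on the minus strand, its start site being 32.1 kb from that of Klrd1. Klrc1 (ENSMUSG00000030167) spans chr6:129666015-129678973 on the minus strand, 87.2 kb away by start site. Klrg1 (ENSMUSG00000030114), at chr6:122270596-122282882 on the minus strand, lies 7.31 Mb from Klrd1, outside this cluster. No exon of the 4 genes overlaps an exon of another annotated gene. Of the 71-base reads that the Klrc1 transcripts can give, 27.0% are identical to reads of Klrc2 or Klrc3, so counts of Klrc1 rest on the remaining sequence, and for the other 3 receptors this share is 0%.

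RefSeq promoter sequences were at hand for Klrk1 and Klrc1. They are shown because both genes were higher in lactate-activated than in naïve cells. The 250 bases before each start site are given 5′ to 3′ on the strand of the gene (GRCm38.p6), with RUNX motifs (TGTGGT, either strand) in capitals. The Klrk1 stretch is chr6:129623865-129624114 and the Klrc1 stretch is chr6:129678974-129679223, both on the minus strand.
Klrk1: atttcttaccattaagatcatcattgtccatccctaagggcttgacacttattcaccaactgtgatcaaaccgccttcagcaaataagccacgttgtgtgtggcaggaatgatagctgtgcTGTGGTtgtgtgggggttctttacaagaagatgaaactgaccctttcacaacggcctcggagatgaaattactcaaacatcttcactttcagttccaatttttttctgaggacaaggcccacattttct
Klrc1: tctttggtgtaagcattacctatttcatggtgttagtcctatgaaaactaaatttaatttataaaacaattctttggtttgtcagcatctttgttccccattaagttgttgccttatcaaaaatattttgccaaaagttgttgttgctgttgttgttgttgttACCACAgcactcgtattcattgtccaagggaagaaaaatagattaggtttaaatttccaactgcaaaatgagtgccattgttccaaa
A RUNX motif was found once in each, starting 129 bases before the Klrk1 start site and 87 bases before that of Klrc1. The same motif was present in 16.8% of 32851 mouse promoters, each read from 250 bases before to 50 bases after the start site. An AP-1 motif (TGANTCA) was found once in the Klrk1 promoter, 18 bases after the start site and so not in the stretch shown, and not in that of Klrc1. It was present in 7.81% of the promoters. A T-box half-site (AGGTGT), present in 13.7% of the promoters, was found in neither. No 2 of these matches overlap, and a match is a string of letters, not a site shown to be bound.

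Across the whole series, total counts per library were 16439750 to 18601223 in naïve, 15842423 to 20922872 in media and 14726904 to 21478137 in lactate cells. At these depths 3 counts, used here as the floor of detection, were worth 0.139 to 0.212 CPM. CD8+ T cell transcripts were abundant in all groups, with Cd8a at a mean of 867 CPM in naïve, 916 CPM in media and 824 CPM in lactate cells. The naïve libraries also held transcripts of other cells, and this touches every comparison with them. Their summed level of 8 myeloid markers, led by Csf1r, was 518 to 1571 CPM, against at most 1.04 CPM in either activated group. For 8 B cell markers, led by Ighm, it was 2320 to 5258 CPM in naïve and at most 708 CPM in activated cells. For 11 markers of CD8+ dendritic cells, led in naïve cells by Cd74, it was 3460 to 6011 CPM and at most 289 CPM. That naïve sum came mostly from Cd74, H2-Aa and H2-Ab1 (means of 2344, 821 and 762 CPM), while Xcr1 and Clec9a were at 14.1 and 13.7 CPM. Alone of the 11, Batf3 had a higher mean in activated cells (17.3 CPM in media, 82.2 CPM in lactate) than in naïve cells (4.10 CPM). Red cell markers, led by Hba-a1, were at 85.1 to 3495 CPM in naïve and at most at 1.90 CPM in activated cells, and gamma-delta T cell markers, led by Trdc, at 109 to 403 and at most 122 CPM. All 8 myeloid and all 5 red cell markers passed the filter on low values only through the naïve libraries and so had to be lower in activated ones. The same held for 3 of the B cell, 4 of the dendritic cell, 2 of the CD4 T cell and 1 of the gamma-delta T cell markers. For 4 CD4 T cell markers the sum was 44.3 to 76.5 CPM in naïve and up to 96.6 CPM in lactate cells. In lactate cells it was mostly Zbtb7b (mean 81.4 CPM, against 22.1 CPM in naïve cells). Cd4 itself was at means of 22.1 CPM in naïve, 0.348 CPM in media and 0.541 CPM in lactate cells. Mean levels of Foxp3 and Cd40lg were also lower in both activated groups than in naïve cells. Markers of naïve CD8 T cells (Tcf7 and others) summed to 5169 to 7864 CPM in naïve, 1775 to 2719 CPM in media and 1339 to 1628 CPM in lactate cells. Memory-like markers summed to 950 to 1332, 1383 to 1765 and 1732 to 2533 CPM, led by Il2rb (means of 331, 843 and 1185 CPM). Of these 20 markers, 10 were called lower and 4 higher in media than in naïve cells (29% and 28.5% of all genes). In lactate cells 7 were lower and 5 higher (32% and 33% of all genes). Of the 20, 4 passed the filter on low values only through the naïve libraries. Naïve replicate 4 stood apart, with 388 CPM of Cd8a where the other naïve libraries had 849 to 1208 CPM.

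The levels of the 4 receptors followed 4 different patterns over naïve, media and lactate cells, although that of Klrg1 follows from the filter on low values. Klrd1 was similar in naïve and media cells and lower in lactate cells, Klrk1 was high in both activated groups, Klrc1 was highest in lactate cells, and Klrg1 was found in naïve cells and was at or near 0 after activation. Per length (TPM, scaled by gene length and library total), Klrd1 was the most abundant of the 4 in each group. In activated cells this rests on the deposited lengths, 7183 bases for Klrk1 and 1281 for Klrd1. By CPM, which is not scaled by length, Klrk1 was above Klrd1 in media (254 against 139 CPM) and in lactate cells (164 against 47.4 CPM). The mean level of Klrd1 was 381 TPM in naïve, 376 TPM in media and 117 TPM in lactate cells. In naïve cells Klrc1 (11.0 TPM), Klrk1 (8.57 TPM) and Klrg1 (3.34 TPM) followed, and neighbours in this order overlapped between libraries. In media cells the order was Klrd1, Klrk1 (122 TPM), Klrc1 (19.9 TPM) and Klrg1 (0.0290 TPM), without overlap between neighbours. In lactate cells Klrk1 (72.3 TPM) and Klrc1 (48.9 TPM) overlapped, Klrd1 stood just above Klrk1, its lowest library being at 95.5 TPM against at most 90.1 TPM for Klrk1, and Klrg1 was last (0.0679 TPM).

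**Figure D1:**
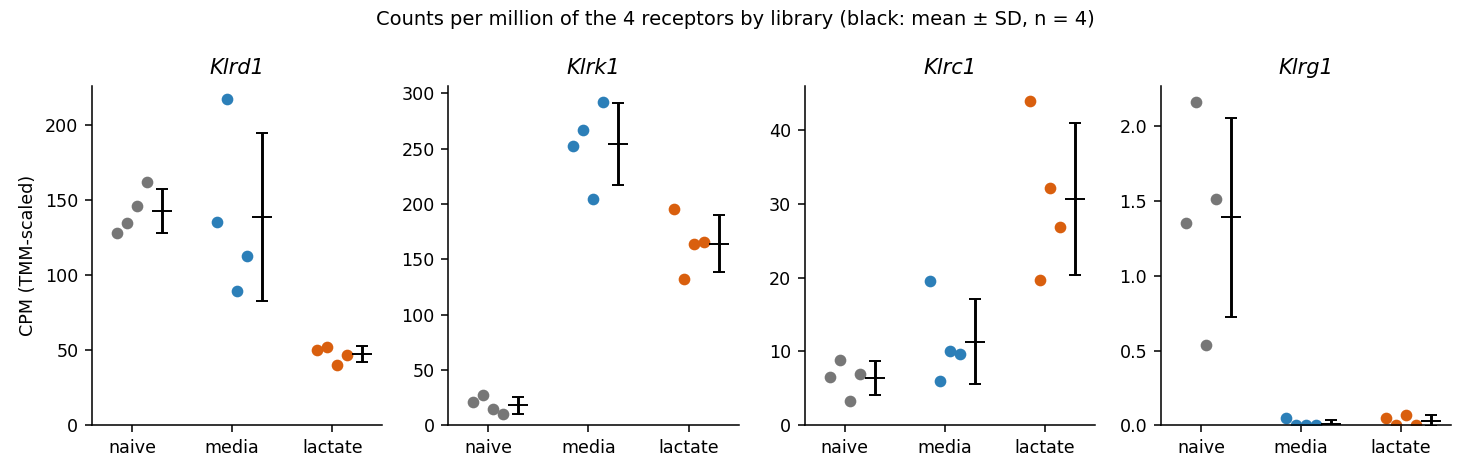
TMM-scaled CPM (y axis, from 0) of Klrd1, Klrk1, Klrc1 and Klrg1 in the 4 naïve, 4 media and 4 lactate libraries, one point per library in order of replicate number, with the group mean ± SD in black. Lactate libraries lie below all others for Klrd1 (40.4 to 52.4 CPM) and above all others for Klrc1 (19.7 to 43.9 CPM), although the lowest of them is close to media replicate 1 (19.5 CPM).

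The first comparison asked whether lactate present during activation changed these transcripts. Klrd1, the shared subunit of the CD94 receptors, fell by 1.55 on the log2 scale. Klrc1, its inhibitory partner, rose by 1.43, and the change of Klrk1 did not pass the test. Klrg1 had at most 1 count in any activated library and could not be compared. So 1 receptor was called higher and 1 lower of the 3 that could be compared. Among all 13767 genes tested, 13.9% were called higher and 11.1% lower in lactate than in media cells at an adjusted p of at most 0.01.

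Klrd1 was at 136, 217, 89.1 and 113 CPM in the media libraries and at 50.4, 52.4, 40.4 and 46.5 CPM in the lactate libraries. The groups did not overlap, and the media libraries were widely spread while the lactate libraries were close together. The means were 139 ± 55.6 CPM and 47.4 ± 5.27 CPM (SD, n = 4 each), and media cells had 2.92 times the level of lactate cells. The log2 fold change was -1.55 ± 0.22 (SE), with an adjusted p of 0.000272 by the quasi-likelihood test of edgeR with Benjamini-Hochberg adjustment.

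Klrc1 moved the other way. It was at 19.5, 6.00, 10.1 and 9.66 CPM in media and at 43.9, 19.7, 32.1 and 26.8 CPM in lactate libraries. The groups did not overlap, but only narrowly so, since media replicate 1 and lactate replicate 2 were nearly equal. The means were 11.3 ± 5.76 CPM and 30.6 ± 10.2 CPM (SD, n = 4 each). The log2 fold change was 1.43 ± 0.37 (SE), or 2.70-fold, with an adjusted p of 0.00879 by edgeR's quasi-likelihood test. This call was close to the threshold: blocking on the mouse in the edgeR fit gave 1.20 and an adjusted p of 0.0330, and leaving out any 1 of naïve replicate 1, media replicates 2, 3 and 4 or lactate replicates 1, 3 and 4 brought the adjusted p above 0.01 (at most 0.0308).

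Klrk1 was at 252, 267, 205 and 293 CPM in media and at 195, 132, 163 and 166 CPM in lactate libraries. All lactate libraries were below all media libraries, by the small gap between 195 and 205 CPM. The means were 254 ± 37.0 CPM and 164 ± 25.7 CPM (SD, n = 4 each), and the log2 fold change of -0.63 ± 0.24 (SE) had an adjusted p of 0.0566 in the edgeR fit. Fitted to the media and lactate libraries alone, without the naïve ones, the log2 fold change was -0.62 with an adjusted p of 0.00318, which passed. This was the only alternative under which it was called, and blocking on the mouse gave an adjusted p of 0.224 (edgeR).

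Groups without overlap were common in this comparison and were found for 44.7% of all genes tested. An exact two-sided permutation test of mean log2 CPM gave p = 0.0286 for Klrd1, Klrk1 and Klrc1 alike, the smallest value that 70 arrangements of 4 against 4 libraries allow, or 0.0349 after Benjamini-Hochberg adjustment over 11 tests. These 11 include the tests of Klrg1 against naïve cells, whose direction was fixed by the filter.

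The 3 mice with libraries of both conditions showed the same directions. From media to lactate, Klrd1 went from 136 to 50.4 CPM, from 89.1 to 52.4 CPM and from 113 to 46.5 CPM, and the log2 differences were -1.43, -0.77 and -1.28. Klrc1 was higher in lactate in 3 of 3 mice, by 1.17, 0.96 and 1.47 on the log2 scale. Klrk1 was lower in 3 of 3, with log2 differences of -0.37, -0.63 and -0.82. The directions also held within each of 2 ranges of library number in the labels, a low range (8 libraries) and a high range (4 libraries). In the low and the high range the differences of mean log2 CPM were -1.42 and -1.38 for Klrd1, 1.46 and 1.59 for Klrc1 and -0.58 and -0.83 for Klrk1.

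Because CD94 and NKG2A share 1 receptor, the ratio of their reads per length was compared directly. In naïve libraries there were, per length, 3.28, 4.27, 1.49 and 2.78 Klrc1 reads for every 100 Klrd1 reads. In media libraries there were 9.30, 1.79, 7.33 and 5.54 for every 100, and in lactate libraries 56.3, 24.3, 51.3 and 37.2. Every lactate library was far above every other library, and naïve and media libraries overlapped. The log2 ratio was 2.98 higher in lactate than in media cells (exact two-sided permutation p = 0.0286, or 0.0429 after adjustment over 9 ratio tests) and 3.86 higher than in naïve cells (the same p-values). Between media and naïve cells it differed by 0.89 (exact permutation p = 0.20). The ratio combines the changes of Klrc1 and Klrd1 given above and is not separate evidence for either. Of these, the change of Klrc1 between media and lactate cells was not called with blocking on the mouse.

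The ratio of Klrk1 to Klrd1 was 21.9 to 46.3 for every 100 in media and 45.1 to 72.1 for every 100 in lactate cells, and the groups overlapped (log2 difference 0.84, exact permutation p = 0.0571). In naïve cells it was 1.10 to 3.65 for every 100, below every activated library. The log2 difference from naïve cells was 4.00 in media and 4.85 in lactate cells (exact permutation p = 0.0286 each).

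**Figure D2:**
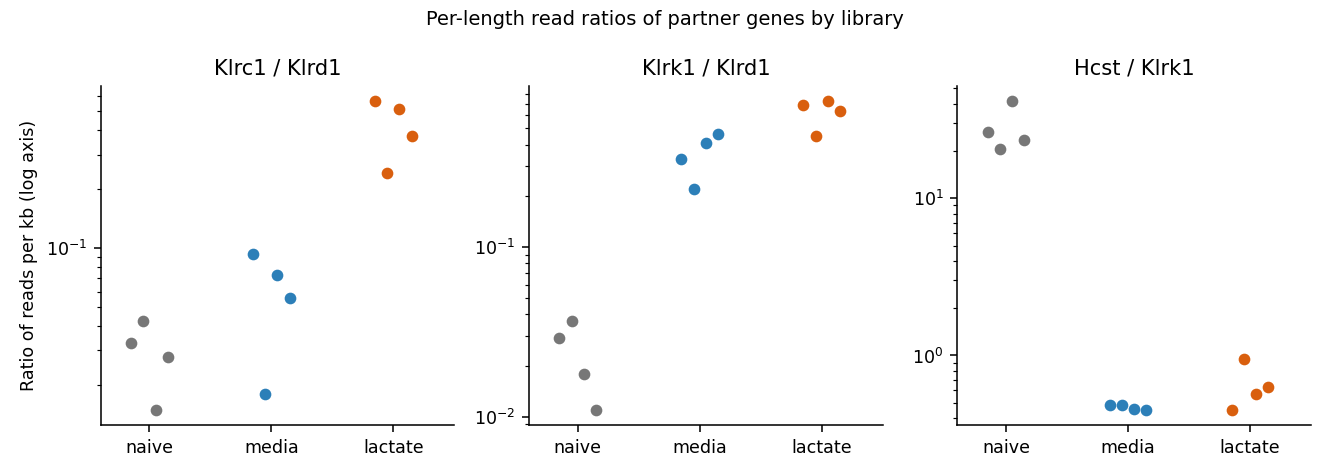
Ratios of reads per kilobase (y axis, log scale) of Klrc1 to Klrd1, Klrk1 to Klrd1 and Hcst to Klrk1, one point per library in naïve, media and lactate cells. Klrc1 per Klrd1 lies between 0.243 and 0.563 in lactate libraries and at most at 0.0930 elsewhere, and Hcst per Klrk1 is at least 20.5 in naïve libraries and at most 0.943 in activated ones.

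The next comparison asked how activation in plain media changed the receptors relative to naïve cells. Klrk1 was the receptor that rose, 13.9-fold. Klrd1 and Klrc1 did not pass the test. Klrg1 passed the filter on low values only through the naïve libraries, so its lower level had to follow and is not counted as a result. Of all genes tested, 28.5% were higher and 29% lower in media than in naïve cells, and for 61.2% the groups did not overlap.

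Klrk1 was at 20.9, 27.6, 14.6 and 9.92 CPM in naïve libraries, against 205 to 293 CPM in media libraries. The groups were far apart, and naïve replicate 4 was the lowest. The log2 fold change was 3.80 ± 0.27 (SE; adjusted p = 1.42e-07, edgeR quasi-likelihood). In lactate cells it was 3.17 ± 0.27 over naïve cells (adjusted p = 3.70e-07, edgeR), and the exact permutation p was 0.0286 in both comparisons. All comparisons with naïve cells use the same 4 naïve libraries.

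Klrd1 was at 128, 135, 146 and 162 CPM in naïve libraries. The media libraries lay on both sides of this range, and the log2 fold change of media over naïve was -0.04 ± 0.22 (SE; adjusted p = 0.878, edgeR). Its sign was not stable: it was 0.02 without naïve replicate 4 and 0.12 without media replicate 3. The level of Klrd1 in lactate libraries was below that of both other groups. Lactate against naïve cells gave -1.59 ± 0.22 (SE; adjusted p = 3.12e-05, edgeR), and naïve cells had 3.01 times the level of lactate cells.

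Klrc1 was at 6.48, 8.89, 3.34 and 6.95 CPM in naïve libraries, which overlapped with media libraries. The log2 fold change of media over naïve was 0.82 ± 0.38 (SE; adjusted p = 0.0681, edgeR; exact permutation p = 0.171). Lactate libraries were all above the naïve ones, with a log2 fold change of 2.26 ± 0.38 (SE), 4.78-fold (adjusted p = 0.000158, edgeR). Of all genes, 33% were higher and 32% lower in lactate than in naïve cells, and 67.8% had groups without overlap.

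Klrg1 was read 24, 36, 10 and 27 times in the naïve libraries. It was read 1, 0, 0 and 0 times in media and 1, 0, 1 and 0 times in lactate libraries. The naïve libraries were thus at 0.539 to 2.16 CPM, and the activated ones were at or under the floor of 3 counts. Per read sequenced, naïve cells had 101 times the rate of media cells (95% exact interval 17.7 to 4037) and 50.3 times that of lactate cells (13.6 to 422). These intervals cover counting error only. Since Klrg1 entered the test only through the naïve libraries, its call (lower in both activated groups) had to follow, and it is not counted as a result.

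NK cells in the naïve preparation bear on these values, because NK cells express all 4 receptors. Of 18 NK cell markers measured, all were above 3 counts in some naïve library. However, 11 of the 18 passed the filter on low values only through the naïve libraries and so had to be lower in activated ones. Of the 8 markers used here to define NK cells, Ncr1 (the receptor NKp46) was at 4.62, 2.76, 1.56 and 2.52 CPM in naïve replicates 1 to 4. It was at 0 in every media library and had 1 read in all lactate libraries together. Klra8 (Ly49H) was at 1.45 to 3.42 CPM in naïve libraries, at 0 in media and at most at 2 reads in a lactate library. Klrb1c, which encodes NK1.1, was at 1.56 to 4.45 CPM in naïve libraries, at most at 2 reads in media libraries and at 13 reads in lactate replicate 1.

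The summed level of the 8 defining markers was 353, 270, 110 and 127 CPM in naïve replicates 1 to 4. It was 6.35 to 20.8 CPM in media and 4.19 to 11.0 CPM in lactate libraries. This drop was partly fixed in advance, since 6 of the 8 passed the filter on low values only through the naïve libraries. These were Ncr1, Klrb1c, Klra8, Tyrobp, Fcer1g and Fcgr3. Most of the naïve sum came from Fcer1g, Tyrobp and Fcgr3, which myeloid cells also express, and most of that in media cells from Klri2. Summed over the wider list of 18 NK cell markers, the level was 818 to 1013 CPM in naïve, 1011 to 1303 CPM in media and 1417 to 1830 CPM in lactate cells, led in each group by Il2rb, which activated T cells express as well.

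Set beside these markers, the receptors varied differently among the naïve libraries. Klrd1 was lowest in naïve replicate 1 (128 CPM), where the sum of the defining markers was highest. Klrg1 and Klrc1 were both lowest in naïve replicate 3, the library with the least Ncr1, Klra8 and Klrb1c. Klrk1 was lowest in naïve replicate 4. The part of NK cells in the naïve levels of the 4 receptors was not tested, and in bulk RNA fewer cells of a type and less RNA per cell cannot be told apart. In the activated libraries the defining markers did not all move together. Ncr1 and Klra8 were at or near 0, Klri2 was at a mean of 11.3 CPM in media and 2.98 CPM in lactate cells, and Klre1 was at 1.08 CPM in media and 3.45 CPM in lactate cells. Lactate replicate 1, the library with the most Klrc1 (43.9 CPM), also had the most reads of Klrb1c (13), Tyrobp (14) and Fcer1g (25) among activated libraries. The part of NK cells in the differences between media and lactate was not tested.

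**Figure D3:**
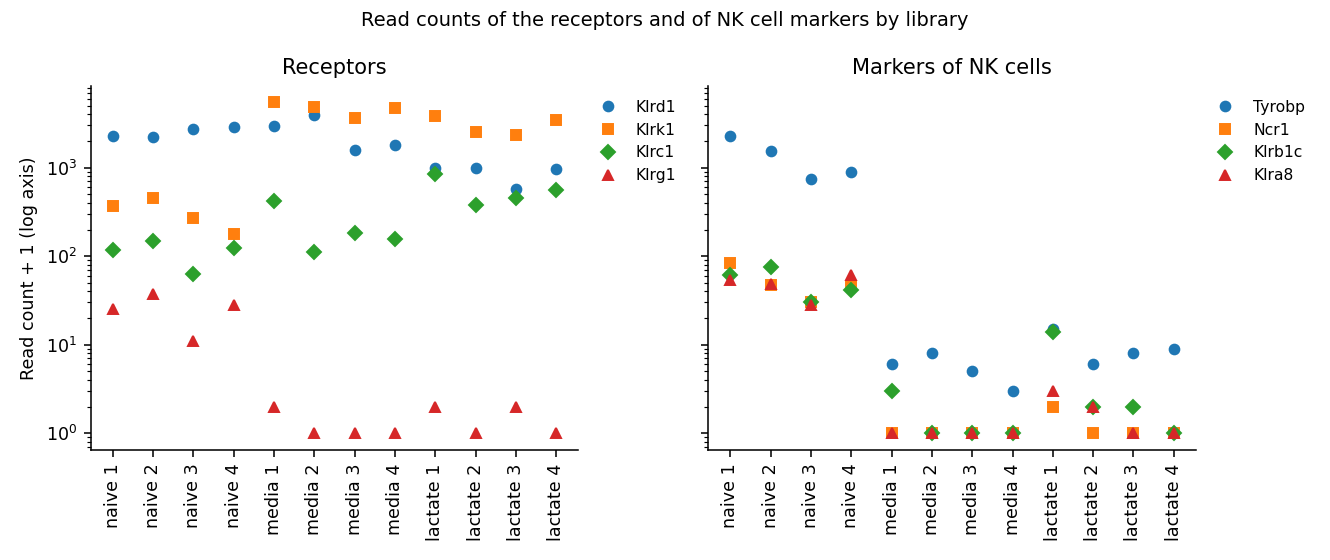
Read counts plus 1 (y axis, log scale) in each of the 12 libraries, for the 4 receptors on the left and for Tyrobp, Ncr1, Klrb1c and Klra8 on the right. The 4 markers shown, like Klrg1, passed the filter on low values only through the naïve libraries and so had to be lower in activated ones, with at most 14 reads there, while Klrd1, Klrk1 and Klrc1 have at least 110 reads in every activated library.

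The other lectin receptor genes of the family, most of them in the same cluster on chromosome 6, gave 16 further genes in the table. In lactate against media cells 2 were higher, 2 were lower and 12 were not called, with a median log2 fold change of 0.01. Over all genes tested the median was -0.0016, and 13.9% were called higher and 11.1% lower, so these counts are near that share. With blocking on the mouse, 1 (Klrh1) was higher and 1 (Klri2) lower, and the share of all genes called in that fit is not given here. Klrh1 passed the filter only through the lactate libraries and had to be higher. Klre1, whose product pairs with those of Klri1 and Klri2, was at 1.25, 0.709, 1.06 and 1.32 CPM in media and at 4.77, 1.99, 3.54 and 3.52 CPM in lactate libraries. It rose by 1.67 ± 0.38 (SE, log2; adjusted p = 0.00402, edgeR). Klri2, the activating partner, was at 13.2, 8.62, 4.74 and 18.6 CPM in media and at 3.18, 1.36, 3.25 and 4.14 CPM in lactate libraries. It fell by 1.92 ± 0.45 (SE, log2; adjusted p = 0.00523, edgeR). With blocking on the mouse Klri2 was still called (adjusted p = 0.00988, edgeR), whereas Klre1, like Klrc1 above, was not (log2 fold change 1.43, adjusted p = 0.0573). Klri1, the inhibitory partner of Klre1, had no read in any activated library.

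Klrh1, also in the cluster, was read 35, 8, 56 and 66 times in the lactate libraries. Media libraries had 0, 1, 0 and 0 reads and naïve libraries 1, 2, 2 and 0. Every lactate library was above the floor and no other library was. The rate in lactate cells was 166 times that in media cells (95% exact interval 29.3 to 6588) and 31.8 times that in naïve cells (13.4 to 99.2). Both intervals cover counting error only, not the spread between libraries. Klrh1 passed the filter on low values only through the lactate libraries, so its call in the fit and the direction of these rates had to follow. Clec2d, a lectin-like ligand of NK cell receptors, was lower in lactate than in media cells (log2 fold change -0.53 ± 0.12 SE, adjusted p = 0.00419, edgeR), but was not called with blocking on the mouse (adjusted p = 0.0522). Klrc2, the activating alternative to Klrc1, was at 1.07 to 2.59 CPM in media and 2.19 to 3.48 CPM in lactate libraries, and the log2 fold change of 0.65 ± 0.30 (SE) did not pass (adjusted p = 0.107, edgeR).

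Relative to naïve cells, 1 of the 16 genes was higher and 13 were lower in media cells, with a median log2 fold change of -2.82, or -3.59 with genes near 0 set at their floor. In lactate cells 1 was higher and 12 were lower, with a median of -3.24. Over all genes tested the medians were -0.03 and 0.01. The shares called higher and lower were 28.5% and 29% in media and 33% and 32% in lactate cells. However, 9 of the 16 (Klri1, Klrb1c, Klrb1f, Klra2, Klra3, Klra4, Klra7, Klra8 and Klra9) passed the filter only through the naïve libraries and had to be lower. They include all 6 measured Klra genes, which encode the Ly49 receptors of NK cells and share much of their sequence, so that reads may be split between them. Klra2 fell from 607 reads over the naïve libraries to 1 in media and 1 in lactate libraries. For Klri1 the naïve level was at least 45.2-fold higher than in media and at least 45.0-fold higher than in lactate cells, taking 3 counts over the group as the floor. Klra8 was at least 65.4-fold higher in naïve than in media cells, and Klra9 73.5-fold (95% exact interval 20.0 to 613). That interval, too, covers counting error only. Of the rest, Klri2 rose in media cells by 1.62 ± 0.45 (SE, log2; adjusted p = 0.00595, edgeR), the only gene of the 16 called higher there.

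**Figure D4:**
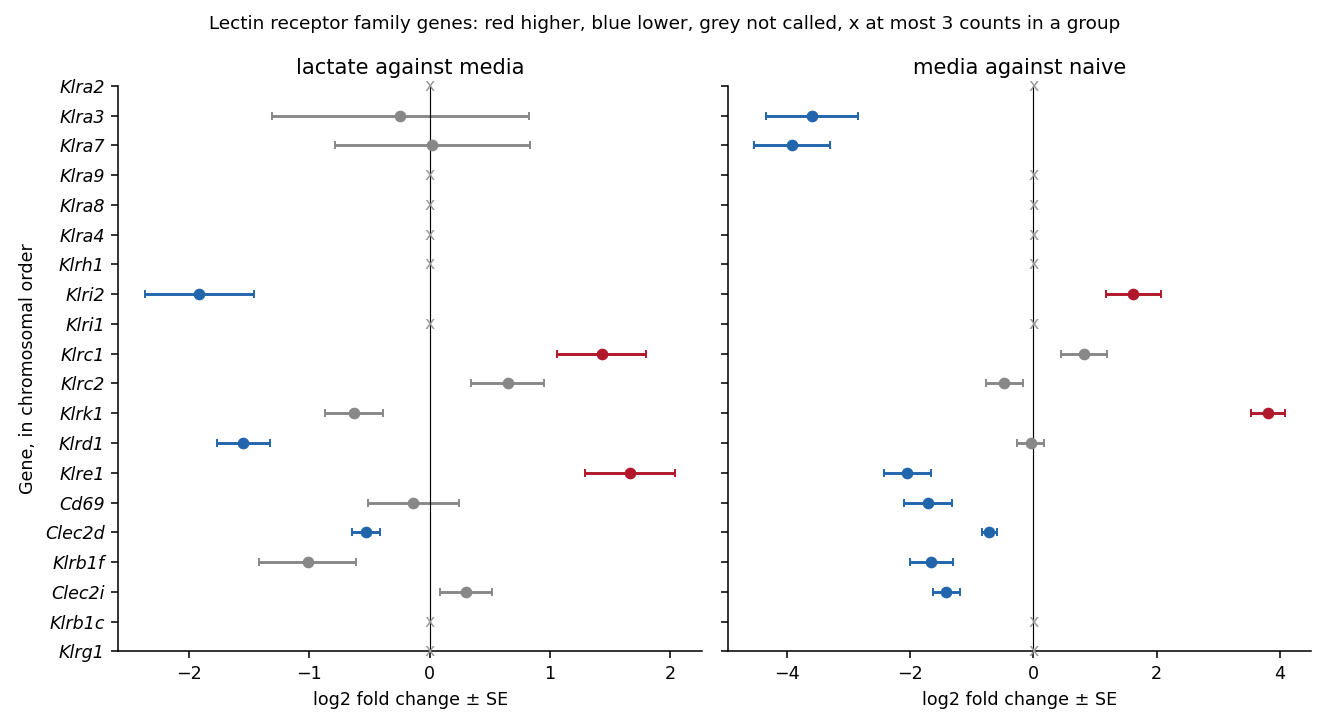
Log2 fold changes ± SE (x axis) of the 4 receptors and the 16 other lectin receptor genes, in their order along chromosome 6 (y axis), for lactate against media on the left and media against naïve on the right. Red points are called higher, blue points lower and grey points are not called at an adjusted p of 0.01, and an x marks genes with at most 3 counts in every library of a group, for which no fold is drawn. On the left, neighbouring genes of the cluster differ in direction, with Klre1 and Klrc1 higher and Klrd1 and Klri2 lower.

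Of the 14 adaptor and signalling genes listed for these receptors, none was higher and 4 were lower in lactate than in media cells (median log2 fold change -0.13). Among all genes tested, 13.9% were called higher and 11.1% lower. With blocking on the mouse 1 of the 14 was lower, and the share of all genes called in that fit is not given here. Hcst, the DAP10 adaptor of NKG2D, was at 55.3, 56.8, 60.9 and 23.4 CPM in naïve libraries, at 12.3, 12.9, 9.31 and 13.3 CPM in media and at 8.81, 12.5, 9.27 and 10.6 CPM in lactate libraries. It fell by 2.04 ± 0.26 from naïve to media cells (SE, log2; adjusted p = 1.87e-05, edgeR) and by 2.25 ± 0.26 from naïve to lactate cells (adjusted p = 6.44e-06, edgeR). Lactate and media overlapped (log2 fold change -0.21, adjusted p = 0.547). NK cells and myeloid cells also express Hcst, and their part in its naïve level was not tested.

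As Klrk1 rose and Hcst fell, their ratio per length changed the most of the 3 ratios compared between activated and naïve cells. Per length, there were 26.4, 20.5, 41.4 and 23.4 Hcst reads for each Klrk1 read in naïve libraries. The ratio was 0.486, 0.481, 0.454 and 0.453 in media and 0.451, 0.943, 0.566 and 0.634 in lactate libraries. The log2 difference was -5.84 between media and naïve cells and -5.43 between lactate and naïve cells (exact two-sided permutation p = 0.0286 each, 0.0429 adjusted over 9 ratio tests). Between lactate and media cells it was 0.42 (exact permutation p = 0.143).

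Tyrobp, the DAP12 adaptor, was at 40.3 to 128 CPM in naïve libraries and had 2 to 14 reads in activated ones. It passed the filter only through the naïve libraries. Syk, the tyrosine kinase that couples to DAP12 and is also used by B and myeloid cells, fell from a mean of 225 CPM in naïve to 1.28 CPM in media and 0.283 CPM in lactate cells. Its lower level in lactate than in media cells (log2 fold change -2.19 ± 0.49 SE, adjusted p = 0.00391, edgeR) rests on 14 to 30 reads per media library and 3 to 6 per lactate library. Pik3r1, a regulatory subunit of phosphoinositide 3-kinase, fell by 1.16 ± 0.13 on the log2 scale from media to lactate cells (SE; adjusted p = 9.06e-05, edgeR). Plcg1 fell by 0.89 ± 0.13 (adjusted p = 0.000317) and Pik3cd by 0.48 ± 0.10 (adjusted p = 0.00276, edgeR). Relative to naïve cells 2 adaptor and signalling genes were higher and 6 lower in media, and 1 was higher and 8 were lower in lactate cells. The median log2 fold changes of the 14 genes were -0.25 and -0.49. Among all genes tested, 28.5% were higher and 29% lower in media, and 33% and 32% in lactate cells. Zap70, the kinase of the T cell receptor, was higher in both, by 0.81 ± 0.13 in media (adjusted p = 0.000152, edgeR) and by 0.65 ± 0.13 in lactate cells (adjusted p = 0.000723). Ptpn6, the phosphatase SHP-1 that inhibitory receptors recruit, was 0.79 ± 0.22 higher in media than in naïve cells (adjusted p = 0.00726, edgeR). In lactate cells its log2 fold change over naïve cells was 0.36, with an adjusted p of 0.163.

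The table held 5 of the 15 listed ligand genes. In lactate against media cells none was called higher and 2 were called lower, with a median log2 fold change of -0.56. Among all genes tested, 13.9% were called higher and 11.1% lower. No ligand gene was called lower with blocking on the mouse, and all 5 were by DESeq2. The shares of all genes called in those fits are not given here, so these counts cannot be set against them. H2-T23, which encodes the Qa-1b ligand of CD94/NKG2A, was at 207 to 285 CPM in media and 109 to 149 CPM in lactate libraries. These groups did not overlap, and the log2 fold change of -0.77 ± 0.21 (SE) narrowly missed the threshold (adjusted p = 0.0109, edgeR). Ulbp1, which encodes the NKG2D ligand MULT1, was at 22.3, 20.2, 26.6 and 35.7 CPM in naïve and at 99.0, 107, 102 and 99.6 CPM in media libraries. In lactate libraries it was at 60.7, 61.4, 81.1 and 74.3 CPM, between the other groups and without overlap with either. It rose by 1.96 ± 0.16 from naïve to media cells (SE, log2; adjusted p = 5.16e-07, edgeR) and by 1.40 ± 0.16 from naïve to lactate cells (adjusted p = 5.91e-06), whereas lactate against media cells gave -0.56 ± 0.16 (adjusted p = 0.0147). Transcripts of an NKG2D ligand and of its receptor were thus both higher in activated than in naïve cells.

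Of the remaining ligands, Cdh1, which encodes the KLRG1 ligand E-cadherin, was low in all groups. It had 19 to 88 reads in media and 1 to 4 reads in lactate libraries, and the highest media library, replicate 2, was at 4.80 CPM where the others were at 0.879 to 1.38 CPM. The log2 fold change of lactate over media was -3.84 ± 0.78 (SE; adjusted p = 0.00218, edgeR). H2-K1, a classical class I gene, was lower in lactate than in media cells (-0.46 ± 0.12 SE, adjusted p = 0.00813, edgeR). Relative to naïve cells, 1 ligand gene was higher and 2 were lower in media cells and 1 was higher and 4 were lower in lactate cells. The median log2 fold changes were -0.22 and -0.97. Among all genes tested, 28.5% were higher and 29% lower in media, and 33% and 32% in lactate cells. H2-K1 fell by 0.80 in media and by 1.26 in lactate cells, and H2-D1 by 0.66 and 0.97 (edgeR, adjusted p at most 6.14e-05).

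Finally, the genes whose log2 CPM followed each receptor most closely over the 12 libraries were listed, as a description. For Klrd1 these were Ms4a4b (Pearson r = 0.97), Btnl7-ps (0.96) and Fyb (0.96). For Klrk1 they were E2f7 (0.998), Stil (0.99) and Kif24 (0.99), of which E2f7 encodes a cell cycle regulator and Stil a centriole protein. For Klrc1 they were Ormdl2 (0.96), Rcc1 (0.96) and G6pdx (0.95), and for Klrg1 Tdrd7, Ngp and Ighv1-12 (0.99 each), of which Ngp is a neutrophil granule gene and Ighv1-12 an immunoglobulin segment. The points share their group and library, so differences between groups alone give high values. Over the deviations from the group means, E2f7 was again nearest to Klrk1 (r = 0.98), followed by Frmd4a (0.97) and Casp1 (0.96). Those nearest to Klrd1 were Cdc42se1 (0.92), Sike1 (0.90) and Traf3ip3 (0.88), those nearest to Klrc1 were St6galnac6 (0.93), Pdxdc1 (0.92) and Tpst1 (0.92), and those nearest to Klrg1 were Nek4 (0.90), Cul4a (0.90) and Plcg2 (0.90). Between the receptors themselves, Klrd1 and Klrc1 had r = -0.84 over the 12 libraries and -0.32 over the deviations.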

How the data were processed

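RNA was measured in 12 libraries, 4 each of naïve, media and lactate CD8+ T cells, grouped by their sample labels. Per the paper's methods, the authors made stranded mRNA libraries, sequenced 71-base single-end reads, aligned them to GRCm38 with STAR 2.7.5b, dropped PCR duplicates with it, and used featureCounts to assign reads with a single alignment to exons. The strand setting of that counting is not given in the sources used here. The deposited table holds these raw counts, with gene lengths, for 13780 genes. Nearly all of them passed the filter below, so genes near 0 in all libraries are not in it.

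Counts were analysed with edgeR 4.0.16 in R 4.3.3. A gene had to reach 1 CPM in no fewer than 3 libraries (13767 did), scaling was by TMM, and a single quasi-likelihood model, with a term for each group, covered all 12 libraries. Tests were two-sided, p-values were Benjamini-Hochberg adjusted over all genes tested, and an adjusted p of at most 0.01 was called. The standard error of a fold change is its absolute log2 value over the root of the F statistic. CPM are TMM-scaled, TPM use the deposited lengths, and log2 CPM use a prior count of 2. Ratios of partner genes are log2 reads per kilobase with 0.5 counts added. The scripts were tested on simulated data. limma 3.58.1 and DESeq2 1.42.0 were alternatives, and no library was left out of the main fit.

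Genes were named by rule: the 4 receptors; per list and direction, at most 5 called genes with the largest changes for lactate against media and at most 3 for each comparison with naïve cells; 3 genes most like each receptor by Pearson r; the defining NK cell markers; and the most abundant marker of each other list. Klrc2, H2-T23, Klrb1f, Klra3, Klra4, Klra7, Zbtb7b, Foxp3 and Cd40lg fall outside the rule and were named after their values were seen. The receptors and lists were chosen with earlier results of these data known.

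The labels carry a mouse tag for activated libraries. The tags recur at low and at high library numbers and were read there as different mice, a choice that gives the 5 mice the series record states. For the 3 mice with both conditions, the correlation across genes of the deviations from group means was 0.374, 0.211 and 0.553. Between libraries of different mice it ranged from -0.441 to 0.371, the highest being media replicate 4 with lactate replicate 3. The ranges overlap, so the correlations cannot settle the pairing, which rests on the labels. The record gives 4 separate mice for the naïve libraries.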

Additional observations from a re-analysis of the deposited data

Results flagged for a closer look

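In each group of 4 libraries, a library was picked out when its gap to the nearest other library, relative to the range of the group, passed Dixon's 95% critical value for 4 samples. Of 78 groups of values checked, 7 were picked out, and chance alone gives about 1 in 20. None belonged to Klrd1, Klrk1, Klrc1, Klrg1 or a ratio of partner genes.

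Naïve replicate 4 was low for Hcst, at 23.4 CPM against 55.3 to 60.9 CPM in the other naïve libraries, and for Ptpn6, at 170 CPM against 415 to 435 CPM. Naïve replicate 3 was low for Syk, at 117 CPM against 254 to 275 CPM. Media replicate 2 was high for Cdh1, at 4.80 CPM against 0.879 to 1.38 CPM. Lactate replicate 2 was high for Clec2d, at 45.9 CPM against 35.2 to 35.8 CPM. Lactate replicate 1 was low for H2-D1, at 1033 CPM against 1236 to 1257 CPM, and high for Klrb1c, at 0.666 CPM against at most 0.0707 CPM.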

How the results depend on the processing

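Of 463 values recomputed under an alternative, 426 kept their direction and their side of the threshold or stayed within the spread, and Klrd1 in lactate against media cells kept both under all 24 tested alternatives (log2 fold change -1.71 to -1.16, adjusted p at most 0.00337). Klrc1 in lactate against media cells was no longer called with the size factors of DESeq2 (log2 fold change 1.40), total counts only (1.38), the library range as a term (1.46) or blocking on the mouse, the paired fit (1.20), and 1 of Klrd1, Klrk1 and Klrc1 was then called in place of 2. Its range without 1 library was 1.21 to 1.83, with 1 to 2 receptors called. Klrk1 was called with the 2 groups alone (-0.62). Klrd1 in media against naïve cells ranged from -0.34 to 0.12 without 1 library. Within the high library range it was -0.52, and Klrk1 was 4.87 in media and 4.04 in lactate against naïve cells; Klrd1 in lactate against naïve cells was -1.40 in the low and -1.90 in the high range. In lactate against media cells the paired fit called 1 family gene higher and 1 lower, 1 adaptor lower and 0 ligands lower, whereas DESeq2 called 5 ligands lower. The shares of all genes called under the alternatives are not given here, so none of these counts, nor those of called receptors, can be set against them. The paired fit changed no other call of a receptor. The numbers in the titles pair only some libraries of a mouse (correlations 0.374, 0.297, 0.0038 and 0.553), and a block on them changed no call of a receptor. With prior count 0.5, 1 of 3 genes nearest to Klrg1 over libraries and 0 of 3 over deviations were shared; at 10 to 36 naïve reads these are limited by depth. Klrg1 gave no value with at least 10 counts in every library or without naïve replicate 1, 2 or 4. The cause of these changes was not tested.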
